A study of Mus musculus with 8 samples.

Results

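The clustered replication-dependent histone genes were followed in whole-liver RNA of cystic fibrosis (CF) mice and of wild-type (WT) littermates. The members were chosen by gene symbol in the array annotation, as the H2ac, H2bc, H3c and H4c genes and H1f1 to H1f5, and each gene was read by its probe of highest mean over the 8 arrays. This gave 50 genes on 55 probes, of 16593 named genes on 23978 probes with a symbol. By class there were 5 H1, 14 H2A, 12 H2B, 9 H3 and 10 H4 genes. RefSeq (GRCm38.p6) places 43 of them on chromosome 13 and 7 on chromosome 3.

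The 4 CF mice carried the ΔF508 change in Cftr, the gene of the epithelial chloride channel, and the 4 WT mice were littermates without it. All 8 were C57BL/6 females of 3 weeks. Both genotypes were weaned on day 21 onto an enriched diet, received a diluted polyethylene glycol and electrolyte laxative as drinking fluid, and were killed on day 23, so the laxative and the diet are shared by the controls. RNA came from whole liver and was read on 1-colour bead arrays, 1 array for each replicate. The labels name no further allele, and they do not say how many litters or cages the mice came from.

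Histones package DNA into nucleosomes, with H2A, H2B, H3 and H4 in the core and H1 on the linker. The clustered genes supply the bulk of histone protein during DNA replication, and their mRNAs normally end in a stem-loop bound by SLBP in place of a poly(A) tail. Outside S phase the same genes can also give polyadenylated transcripts, and liver at weaning holds both dividing and resting hepatocytes. The cRNA amplification used here starts from an oligo(dT) primer, so these levels need not follow the total pool of each histone mRNA. Many core histone genes of 1 class have closely similar coding parts, while the H1 genes and the testis forms differ more. The probe sequences were not used here, so a signal cannot be assigned to a single member with certainty.

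Levels are log2 values, which the authors had quantile-normalized, and a difference is CF minus WT on that scale. A probe entered the test when it lay above a background level of 6.46 on at least 4 arrays, and otherwise it is said to lie under background. A change was called at an adjusted p under 0.05 (limma, Benjamini-Hochberg over all 12937 tested probes). Of these probes, 1338 were higher and 1137 lower in CF. The arrays CF 1 and WT 3 stood apart in their exocrine pancreas transcripts, such as Prss2, a trypsinogen, which was at 11.54, 8.99, 7.07 and 6.48 in CF and at 6.88, 8.01, 11.25 and 6.03 in WT. Over the 10 tested pancreas genes the mean level was 7.43 to 12.22 in CF arrays and 6.97 to 12.50 in WT arrays, and 0 were called. Results that rest on these arrays are given without them below. Hepatocyte markers such as Apoa1 (14.39 ± 0.08 in CF, 14.35 ± 0.12 in WT) and Ttr (14.36 ± 0.04 in CF, 14.38 ± 0.04 in WT) were high in both genotypes. In the same list Alb was at 7.92 ± 0.13 in CF and 7.97 ± 0.17 in WT, Tat was near background (6.53 ± 0.15 in CF, 6.29 ± 0.24 in WT) and Fgb was under it on all 8 arrays (6.10 ± 0.11 in CF, 6.20 ± 0.05 in WT), and 0 of the 8 tested markers were called. The Cftr probe lay under background on all 8 arrays (6.06 ± 0.12 in CF, 6.11 ± 0.03 in WT, SD, n = 4 each) and so did not check the genotypes. All values below are means ± SD with n = 4 for each genotype unless an SE is named.

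The stretches just upstream of 6 members of the H1 and H2B classes are shown. None is of a tested member that was not called. H2bc15, H2bc7, H2bc12 and H1f2 were lower in CF, H2bc18 was higher, and H2bc8 lay under background. Each stretch is the 150 bases before the RefSeq start (GRCm38.p6), written 5′ to 3′ on the strand of the gene. Capitals mark the motifs searched on either strand. These were the octamer ATTTGCAT bound by Oct factors, and CCAAT, the box bound by NF-Y. Also searched was TATAAA, a form of the TATA box, as was GGTCC, a core of an H4 promoter element. The last was an E2F-type site, searched as TTTGGCGC and also as TTTCGCGC.
H2bc15 (chr13:21753926-21754075, plus strand): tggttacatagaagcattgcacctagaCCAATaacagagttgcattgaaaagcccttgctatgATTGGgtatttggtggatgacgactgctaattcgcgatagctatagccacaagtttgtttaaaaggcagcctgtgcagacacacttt
H2bc7 (chr13:23574208-23574357, minus strand): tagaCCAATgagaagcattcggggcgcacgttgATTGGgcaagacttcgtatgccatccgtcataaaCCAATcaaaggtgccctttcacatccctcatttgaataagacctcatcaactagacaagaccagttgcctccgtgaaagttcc
H2bc12 (chr13:22035671-22035820, plus strand): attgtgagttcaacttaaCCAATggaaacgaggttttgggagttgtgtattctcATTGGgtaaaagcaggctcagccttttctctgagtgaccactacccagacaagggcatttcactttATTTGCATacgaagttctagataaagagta
H1f2 (chr13:23738657-23738806, plus strand): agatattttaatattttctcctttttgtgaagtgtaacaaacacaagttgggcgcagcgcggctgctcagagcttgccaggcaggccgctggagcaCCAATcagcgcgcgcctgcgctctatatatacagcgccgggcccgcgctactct
H2bc18 (chr3:96269550-96269699, plus strand): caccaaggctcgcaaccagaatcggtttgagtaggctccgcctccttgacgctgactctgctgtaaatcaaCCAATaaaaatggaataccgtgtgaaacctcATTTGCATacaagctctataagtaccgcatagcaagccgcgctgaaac
H2bc8 (chr13:23571250-23571399, plus strand): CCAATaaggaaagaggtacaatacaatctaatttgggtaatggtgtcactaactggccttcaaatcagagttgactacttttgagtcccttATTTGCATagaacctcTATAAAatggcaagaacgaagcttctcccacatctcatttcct
CCAAT was in 14 of 14 H2A promoters and 12 of 12 H2B promoters, against 24.5% of all 32851 promoters in the table. The octamer was in 6 of 12 H2B promoters and 4 of 14 H2A promoters, and in 0.998% of all promoters. TATAAA was in 0 of the 11 promoters of members lower in CF, in 8 of 17 of those not called and in 12 of 18 of those under background, and in 7.57% of all promoters. By class it was in 4 of 5 H1, 7 of 14 H2A, 3 of 12 H2B, 2 of 7 H3 and 4 of 9 H4 promoters. The split by call was not tested. Only this spelling was searched, so its absence does not show that a promoter lacks a TATA box. GGTCC was in 9 of 9 H4 promoters and 26.2% of all, and the E2F-type motif in 3 of 47 member promoters and 0.423% of all. These are matches of letters in a window, not sites, and neighbouring H2A and H2B genes can share the same stretch. H2bc4, H3c1, H3c7 and H4c14 are named here without a promoter.

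Of the 50 members, 30 lay above background. Among these 30, 12 fell, 1 rose and 17 did not pass, or 40.0% lower, while 8.78% of all 9154 named genes above background were lower in CF and 11.0% were higher. The median difference of the 30 was -0.43, against 0.02 for all named genes above background, and over all 50 members it was -0.14, against 0.01 for all 16593 named genes. A member could enter the test through the genotype in which it was higher, so the 30 do not stand for the 50. Of the 43 members on chromosome 13, 24 were tested, of which 12 fell and 12 did not pass. Of the 7 on chromosome 3, 6 were tested, of which 1 rose and 5 did not pass. The difference between the chromosomes was not tested, and the members of a class share sequence across them. These counts read 1 probe per gene. The dimmer probe of H3c14, on chromosome 3, was lower in CF (-0.28 ± 0.08 SE, adjusted p = 0.0419 by limma). The rise on chromosome 3, of H2bc18, kept its call in 11 of 18 alternatives.

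**Figure D1:**
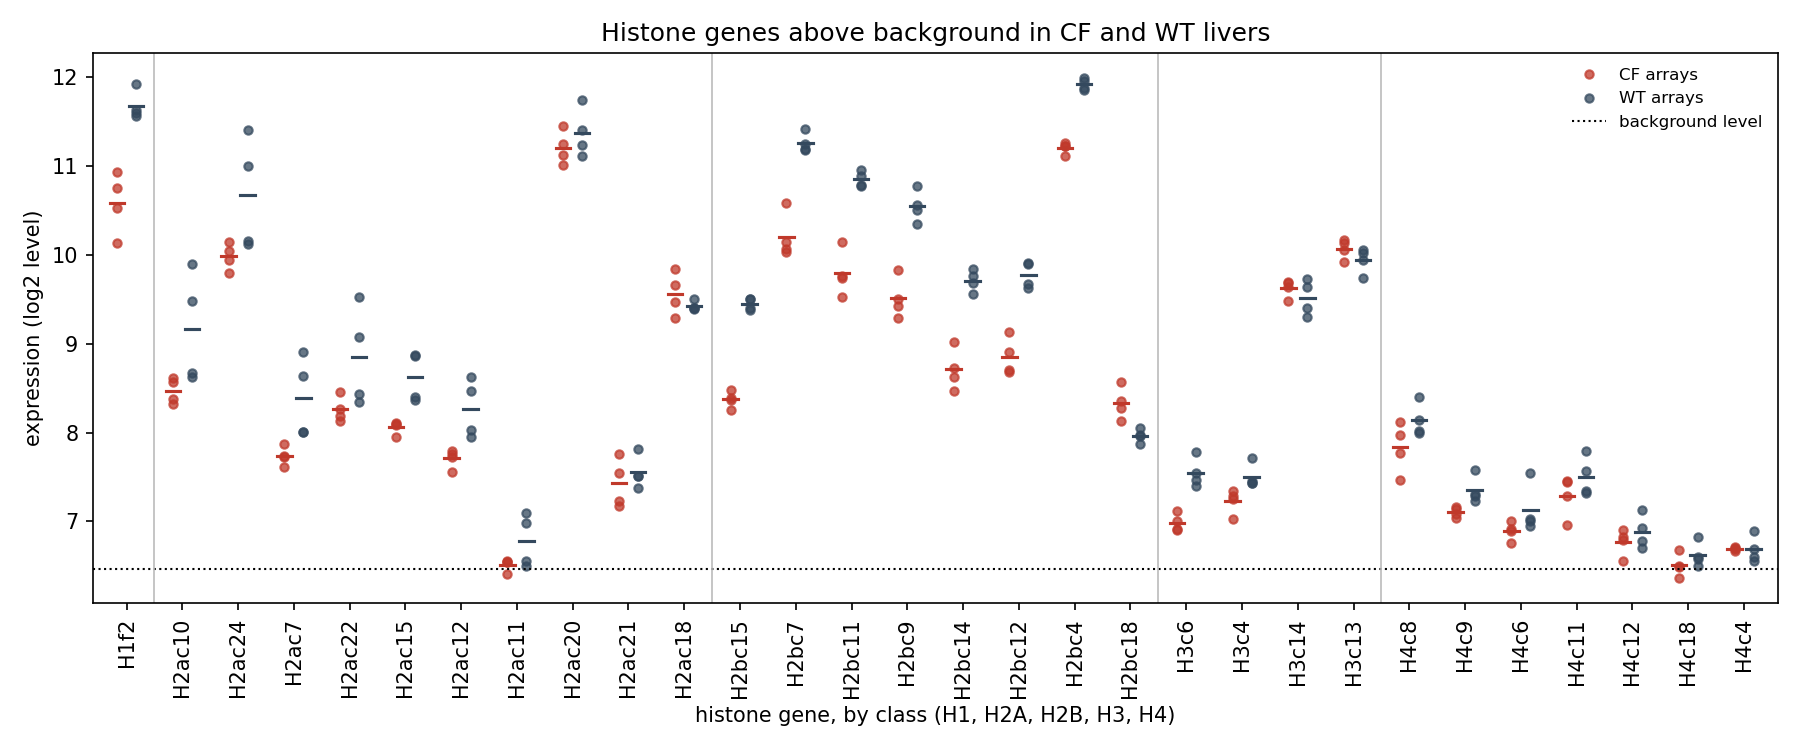
Log2 level (vertical axis) of the 30 histone genes above background, by class, with the 4 CF arrays left of the 4 WT arrays for each gene. Points are arrays, short bars are means, and the dotted line is the background level of 6.46. The 7 H2B genes from H2bc15 to H2bc4 and H1f2 show CF arrays wholly below the WT arrays.

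**Figure D2:**
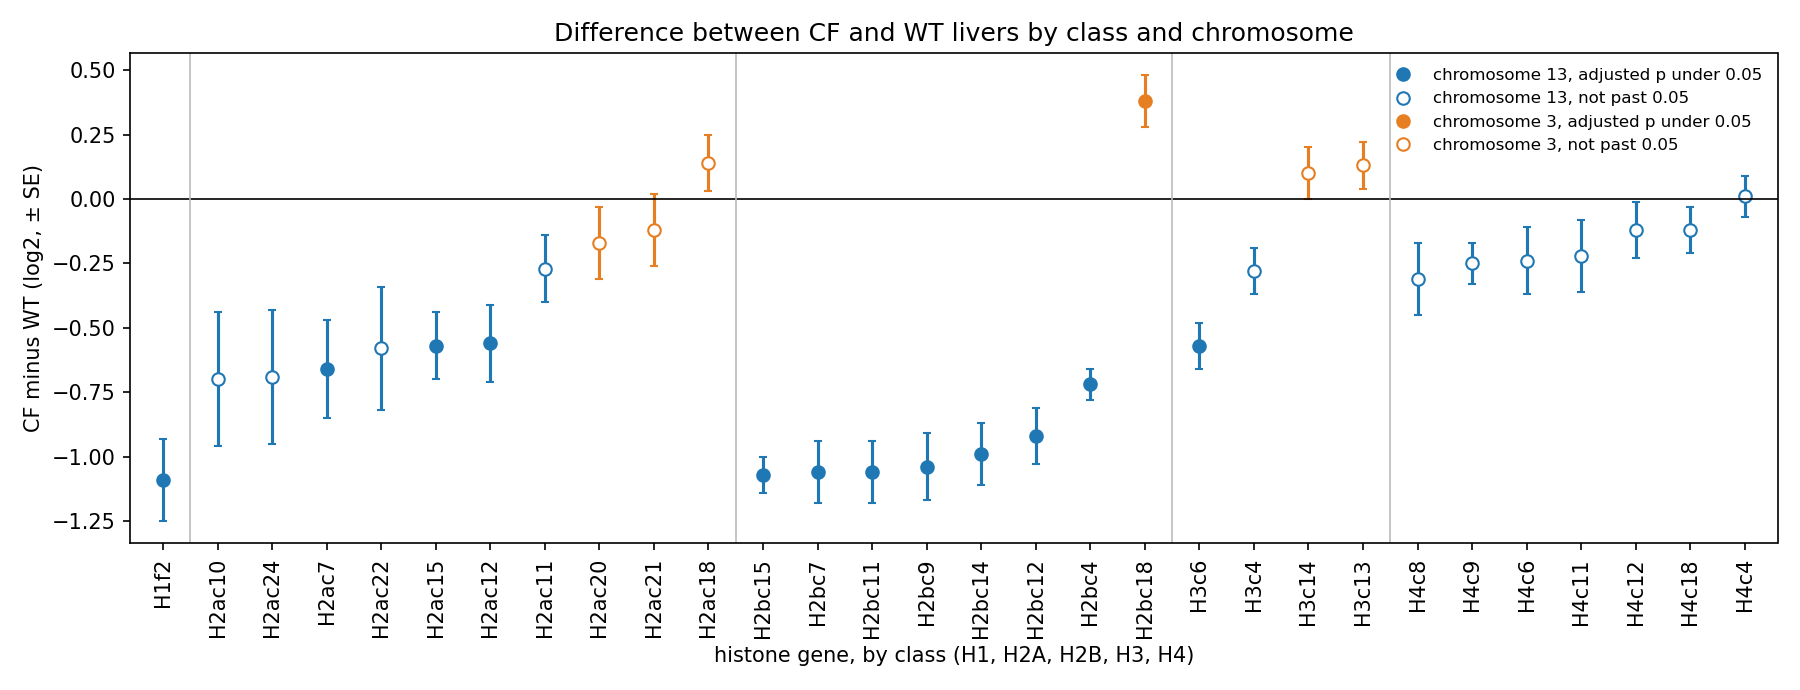
Difference in log2 level, CF minus WT, with its SE (vertical axis), for the same 30 genes by class. Filled points passed an adjusted p of 0.05. Each gene is shown by its probe of highest mean. On these probes the 12 members that fell are all on chromosome 13 (blue), and H2bc18, which rose, is on chromosome 3 (orange).

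Among the H2B genes, whose product pairs with H2A in the nucleosome core, 7 of 8 tested members fell and 1 rose. This is 87.5% lower, against 8.78% of all named genes above background. The 7 that fell are all those of chromosome 13 that lay above background, with differences between -1.07 and -0.72. H2bc15 was at 8.25, 8.48, 8.37 and 8.39 in CF arrays 1 to 4, against 9.50, 9.40, 9.38 and 9.50 in WT arrays 1 to 4. The groups lay well apart, with little spread in either genotype. Its mean was 8.37 ± 0.09 in CF and 9.45 ± 0.06 in WT, 2.10-fold lower in CF (difference -1.07 ± 0.07 SE, adjusted p = 4.8e-05 by limma).

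H2bc7 was at 10.07, 10.58, 10.14 and 10.03 in CF, against 11.19, 11.25, 11.18 and 11.42 in WT, and fell 2.08-fold (-1.06 ± 0.12 SE, adjusted p = 0.00071 by limma). H2bc11 was at 9.76, 10.15, 9.53 and 9.74 in CF, against 10.79, 10.96, 10.78 and 10.89 in WT (-1.06 ± 0.12 SE, adjusted p = 0.000689 by limma). In both genes CF 2 was the highest of the CF arrays yet below every WT array. H2bc9 was at 9.43, 9.83, 9.50 and 9.29 in CF, against 10.35, 10.56, 10.51 and 10.78 in WT (-1.04 ± 0.13 SE). H2bc14 was at 8.63, 9.02, 8.47 and 8.73 in CF, against 9.68, 9.84, 9.56 and 9.76 in WT (-0.99 ± 0.12 SE). The same array, CF 2, stood nearest to the WT range in these genes too, and over the 7 fallen H2B genes it was the highest CF array in 6.

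H2bc12 was at 8.68, 9.13, 8.70 and 8.91 in CF, against 9.63, 9.90, 9.67 and 9.91 in WT (-0.92 ± 0.11 SE). H2bc4, with the highest signal of its class, was at 11.11, 11.22, 11.26 and 11.22 in CF, against 11.99, 11.96, 11.86 and 11.88 in WT, and fell 1.65-fold (-0.72 ± 0.06 SE, adjusted p = 0.000184 by limma). Neither gene had overlapping groups, and the fall of H2bc4 was the smallest of the 7. Its other probe, much dimmer at 6.90 ± 0.18 in CF and 7.25 ± 0.09 in WT, fell as well (-0.35 ± 0.10 SE, adjusted p = 0.034 by limma). In each of the 18 alternative settings all 7 genes passed the test, with adjusted p up to 0.0141.

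The exception among H2B genes was H2bc18, the single H2B member on chromosome 3. It was at 8.28, 8.36, 8.57 and 8.13 in CF, against 7.87, 8.05, 7.97 and 7.96 in WT, with CF arrays wholly above WT arrays. It rose 1.30-fold (0.38 ± 0.10 SE, adjusted p = 0.0238 by limma). The call was lost in 7 of 18 alternatives, with adjusted p from 0.0122 to 0.138. It was lost without CF 2 (0.0534), WT 1 (0.057), WT 3 (0.0585) or WT 4 (0.0533), without WT 3 and CF 1 together (0.0983) and without WT 1 and WT 2 together (0.0961). The average of its 2 probes gave the highest adjusted p, and the other probe lay under background on all 8 arrays (6.12 ± 0.20 in CF, 6.14 ± 0.15 in WT).

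H1 genes encode the linker histones, and of 5 members only H1f2 lay above background. H1f2 was at 10.75, 10.93, 10.53 and 10.13 in CF, against 11.92, 11.56, 11.63 and 11.60 in WT. All CF arrays were below all WT arrays, with CF 4 the lowest and WT 1 the highest. The mean was 10.59 ± 0.35 in CF and 11.68 ± 0.17 in WT, a 2.13-fold fall (-1.09 ± 0.16 SE, adjusted p = 0.00224 by limma), and it passed in each of the 18 alternatives. H1f1, H1f3, H1f4 and H1f5 had means of 6.00 to 6.36 in CF and 6.00 to 6.31 in WT and were not tested.

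Of 10 tested H2A genes, 3 fell, 0 rose and 7 did not pass, or 30.0% lower against 8.78% of all named genes above background. H2ac15 was at 8.10, 8.11, 8.08 and 7.95 in CF, against 8.86, 8.87, 8.37 and 8.40 in WT (-0.57 ± 0.13 SE, adjusted p = 0.014 by limma). H2ac12 was at 7.73, 7.76, 7.79 and 7.56 in CF, against 8.47, 8.63, 7.95 and 8.03 in WT (-0.56 ± 0.15 SE, adjusted p = 0.0276 by limma). H2ac7 was at 7.74, 7.87, 7.73 and 7.61 in CF, against 8.91, 8.64, 8.01 and 8.01 in WT (-0.66 ± 0.19 SE, adjusted p = 0.0422 by limma). The CF arrays lay below the WT arrays in all 3, but WT 1 and WT 2 stood well above WT 3 and WT 4. With WT 1 and WT 2 left out, an alternative added after the data were seen, the differences were -0.33 for H2ac15, -0.28 for H2ac12 and -0.27 for H2ac7, and only H2ac15 still passed. H2ac12 kept its call in 11 of 18 alternatives and H2ac7 in 8, and both lost it when WT 1, WT 2, CF 1, CF 2 or CF 4 was left out singly. H2ac7 was lost without CF 3 as well.

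The other 4 tested H2A genes of chromosome 13 showed the same spread between WT arrays. H2ac24 was at 9.94, 10.15, 9.80 and 10.04 in CF, against 11.00, 11.40, 10.16 and 10.12 in WT, so that CF 2 reached the lower WT arrays (-0.69 ± 0.26 SE, adjusted p = 0.102 by limma). H2ac10 had a difference of -0.70 ± 0.26 SE, H2ac22 of -0.58 ± 0.24 SE and H2ac11 of -0.27 ± 0.13 SE. None of these 4 passed, although H2ac10 passed once WT 4 was left out. On chromosome 3, H2ac20, with the highest signal of its class, was at 11.12, 11.45, 11.01 and 11.25 in CF, against 11.40, 11.74, 11.11 and 11.24 in WT. Its groups overlapped (-0.17 ± 0.14 SE), as did those of H2ac21 (-0.12 ± 0.14 SE) and H2ac18 (0.14 ± 0.11 SE). H2ac1, H2ac4, H2ac6 and H2ac8 were not tested. H2ac8 was at 6.25 ± 0.10 in CF and 6.47 ± 0.04 in WT, at the edge of background, and was called lower when the filter on dim probes was left off.

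Of 4 tested H3 genes, whose product carries many of the tail marks of chromatin, 1 fell and 3 did not pass. With 4 genes this count cannot be set apart from the 8.78% of all named genes above background that were lower. H3c6 was at 6.90, 7.12, 7.01 and 6.91 in CF, against 7.78, 7.55, 7.40 and 7.47 in WT, and fell 1.48-fold (-0.57 ± 0.09 SE, adjusted p = 0.00384 by limma). H3c4, also of chromosome 13, was at 7.03, 7.34, 7.29 and 7.25 in CF, against 7.71, 7.45, 7.43 and 7.43 in WT (-0.28 ± 0.09 SE, adjusted p = 0.0669 by limma). In both the groups did not overlap, yet only H3c6 passed, as it did in each of the 18 alternatives. H3c13 of chromosome 3, with the highest signal of its class, was at 9.92, 10.13, 10.17 and 10.05 in CF, against 9.94, 9.74, 10.02 and 10.06 in WT (0.13 ± 0.09 SE). H3c14, also of chromosome 3, had a difference of 0.10 ± 0.10 SE on the brighter probe. On the dimmer one it was -0.28 ± 0.08 SE (adjusted p = 0.0419 by limma), so the 2 probes of that gene differ in sign. H3c1, H3c3, H3c7, H3c8 and H3c10 lay under background, with means of 5.98 to 6.37 in CF and 5.81 to 6.43 in WT.

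None of the 7 tested H4 genes, which encode the partner of H3, passed. Over all named genes above background 8.78% were lower and 11.0% higher, so 0 of 7 does not set the class apart. The H4 differences ran from -0.31 to 0.01, with a median of -0.22 and 6 of 7 below 0. H4c8, with the highest signal of its class, was at 7.47, 7.97, 8.12 and 7.77 in CF, against 8.40, 8.14, 7.99 and 8.02 in WT (-0.31 ± 0.14 SE, adjusted p = 0.173 by limma). H4c9 was at 7.04, 7.16, 7.14 and 7.08 in CF, against 7.58, 7.29, 7.31 and 7.23 in WT (-0.25 ± 0.08 SE, adjusted p = 0.0693 by limma), and it alone of the class had groups that did not overlap. H4c6, H4c11, H4c12, H4c18 and H4c4 had differences of -0.24, -0.22, -0.12, -0.12 and 0.01. H4c2, H4c3 and H4c14 lay under background and were not tested, H4c14 with 3 arrays above the level.

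Over the 30 tested members, the CF arrays lay wholly below the WT arrays in 15 and wholly above in 1, where 10.5% and 13.9% of all named genes above background did so. Within WT, WT 1 and WT 2 were both above WT 3 and WT 4 in 7 of the 7 tested H2A genes of chromosome 13 and in 5 of 7 H4 genes, but in 1 of 8 H2B genes. Over all named genes above background this order held in 26.2%. The SD between WT arrays was 0.28 to 0.63 for those H2A genes and 0.06 to 0.18 for the H2B genes of chromosome 13. The difference in spread between the classes was not tested.

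**Figure D3:**
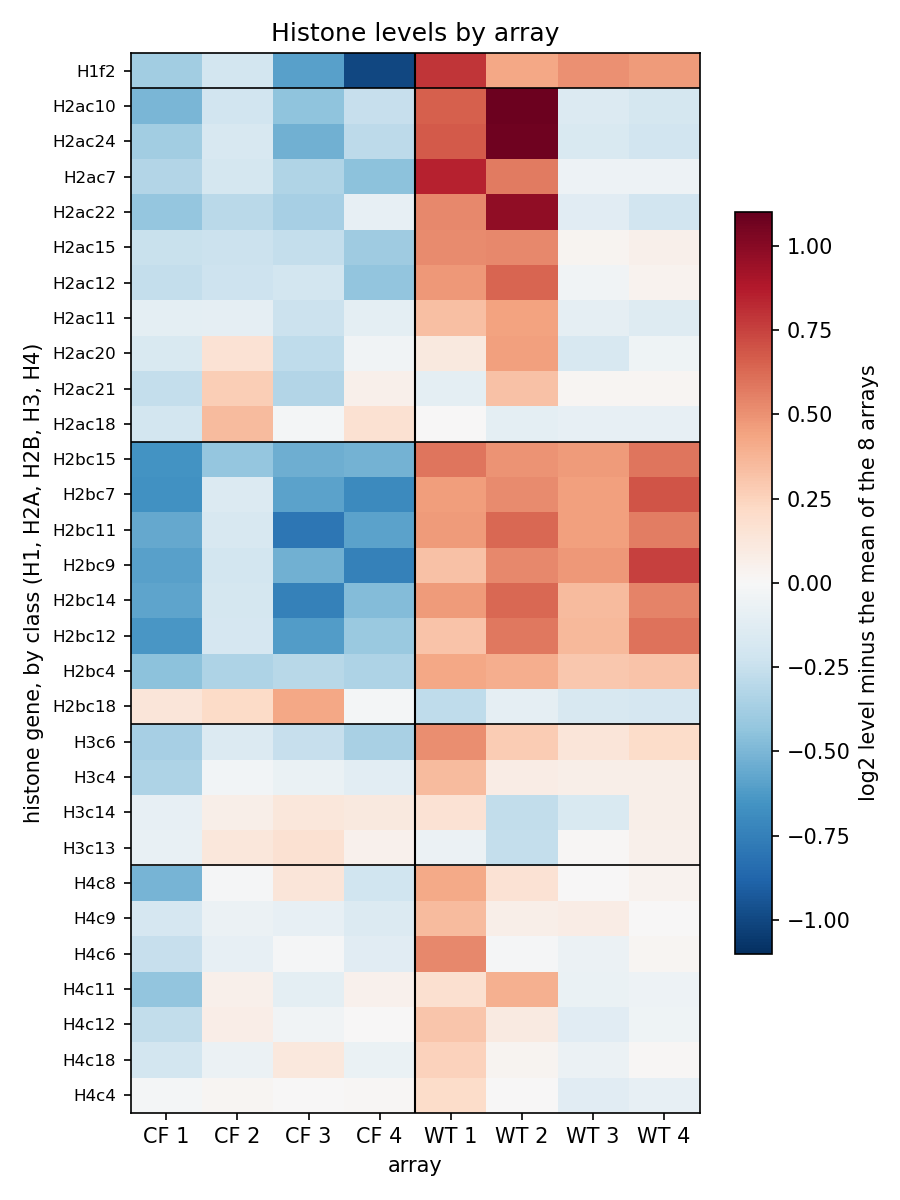
Log2 level minus the gene's mean over the 8 arrays (colour), for the 30 histone genes above background in rows by class and the CF and WT arrays in columns. H2B genes of chromosome 13 are low in each CF array and high in each WT array, while the H2A genes of chromosome 13 are highest in WT 1 and WT 2.

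Many H2A and H2B genes sit side by side and are read away from each other, so they share an upstream region. In the RefSeq order there were 8 pairs of adjacent H2A and H2B members, 6 of them with opposite strands in the promoter table. H2ac4 and H2bc3 are both on the plus strand there, and H2bc4, adjacent to H2ac6, has no entry. Both genes of a pair lay above background in 4 pairs, and in each of the 4 the H2B difference was further below 0. H2ac15 and H2bc15 differed by -0.57 and -1.07, and H2ac12 and H2bc12 by -0.56 and -0.92. For H2ac11 and H2bc11 the differences were -0.27 and -1.06, and for H2ac7 and H2bc7 -0.66 and -1.06. H2ac11 was near the background level of 6.46, at 6.51 ± 0.07 in CF and 6.78 ± 0.30 in WT. H2bc11 was far above it, at 9.80 ± 0.26 in CF and 10.85 ± 0.09 in WT. A fall of H2ac11 could therefore read as smaller than it is. H2bc4 was at 11.20 ± 0.07 in CF and 11.92 ± 0.06 in WT, while its neighbour H2ac6 lay under background at 6.36 ± 0.07 in CF and 6.40 ± 0.06 in WT. Whether the differences within pairs are unequal was not tested. As a signal cannot be assigned to a single member with certainty, the 4 pairs may not be separate observations.

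Besides these, 20 members were not tested, with means of 5.98 to 6.44 in CF and 5.81 to 6.47 in WT. They include the H2B genes H2bc1, H2bc3, H2bc6 and H2bc8, of which H2bc1 and its neighbour H2ac1 are testis forms. Genes just outside the symbol rule, with older names of the same series, were H1f6, H2aw, H2bu1-ps, H2bu2 and H4f16. All 5 lay under background on every array.

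Histone variants with genes of their own, many of them made outside S phase and with a poly(A) tail, went both ways. Of 8 tested, 2 fell, 1 rose and 5 did not pass, with a median of -0.17. Over all named genes above background 8.78% were lower and 11.0% higher, and with 8 genes these counts are near those shares. Macroh2a1, a large H2A variant of repressed chromatin, was at 9.59, 9.63, 9.69 and 9.62 in CF, against 10.04, 10.11, 10.06 and 10.06 in WT (-0.44 ± 0.06 SE, adjusted p = 0.00121 by limma). H3f3b, one of the H3.3 genes, was at 11.71, 11.68, 11.70 and 11.56 in CF, against 11.45, 11.23, 11.32 and 11.47 in WT (0.29 ± 0.07 SE, adjusted p = 0.0244 by limma). Cenpa, the centromeric H3, fell by 0.54 (SE 0.16, adjusted p = 0.0463 by limma), with WT 1 and WT 2 its highest arrays.

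The next lists hold factors that act on histone genes and mRNAs, and their counts stand beside the 8.78% of all named genes above background that were lower and the 11.0% that were higher. Of 11 tested genes of histone mRNA 3′ processing and decay, 0 were called in either direction and the median difference was 0.00. The probes of Slbp, the stem-loop binding protein, and of Lsm11, of the U7 particle, lay under background and were not tested. Of 7 tested genes of histone gene transcription, 1 fell and 1 rose. E2f1, a transcription factor of S phase entry, was at 6.91 ± 0.16 in CF and 7.45 ± 0.23 in WT (-0.54 ± 0.13 SE, adjusted p = 0.0171 by limma), and Nfyc, a subunit of the CCAAT-binding factor NF-Y, was at 11.22 ± 0.18 in CF and 10.86 ± 0.04 in WT (0.36 ± 0.09 SE, adjusted p = 0.0217 by limma). Of 15 histone chaperone and deposition genes, 0 fell and 1 rose, Nap1l4, a nucleosome assembly protein (0.44 ± 0.07 SE, adjusted p = 0.0037 by limma).

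In the S phase list 7 of 28 tested genes fell, 0 rose and 21 did not pass, with a median of -0.24. In the mitosis list 6 of 9 fell, 0 rose and 3 did not pass, with a median of -0.50, while 8.78% of all named genes above background were lower. Tyms, thymidylate synthase, fell by 0.59 (SE 0.08), Rfc5, a clamp loader subunit, fell by 0.55 (SE 0.08), Dut, a dUTPase, fell by 0.43 (SE 0.08), and Mcm5, of the replicative helicase, fell by 0.82 (SE 0.15). Of the mitosis genes, Top2a, the DNA topoisomerase, fell by 0.42 (SE 0.09). It was above background in the WT arrays only (6.27 ± 0.14 in CF, 6.70 ± 0.09 in WT), so it entered the test through WT. Prc1 and Cdc20, of spindle assembly and exit from mitosis, fell by 1.01 (SE 0.22) and 0.83 (SE 0.22), and the kinase gene Cdk1 fell by 0.63 (SE 0.15). The WT 1 and WT 2 order described above for H2A held in 20 of 28 S phase genes and 9 of 9 mitosis genes. Leaving out WT 1 and WT 2 was chosen after the data were seen, so smaller falls in genes with this order were built in. Without WT 1 and WT 2 the counts of falls were 4 and 2, and without WT 3 and CF 1 they were 3 and 2, while the histone counts were 10 and 11. Over all probes the lower calls were 1137 in the main fit, and 650 and 529 in these settings, in that order. The mitosis count was 3 when CF 2, WT 1 or WT 2 alone was left out. With probes above background on all arrays it was 4, and the S phase count was 7.

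**Figure D4:**
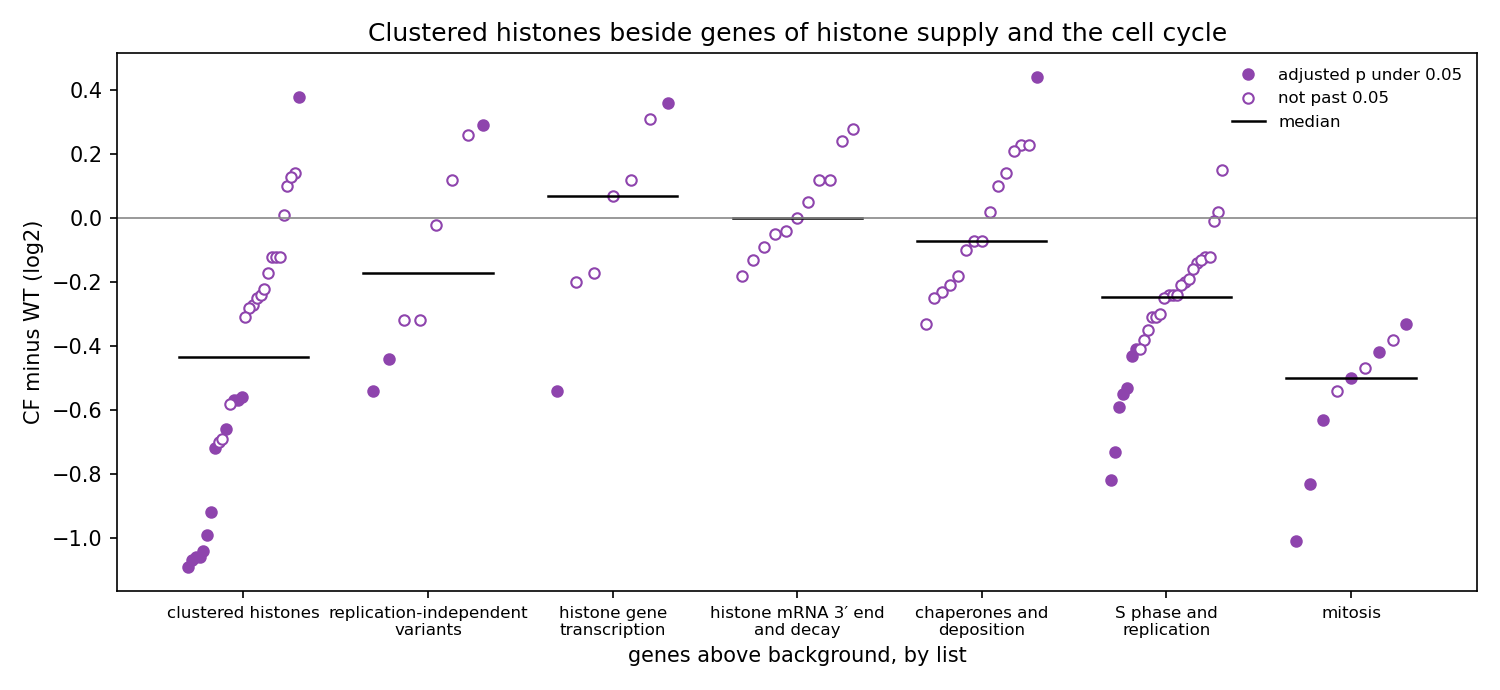
Difference in log2 level, CF minus WT (vertical axis), of the 30 clustered histones and of 6 lists of genes above background. Each point is a gene, filled where its adjusted p was under 0.05, and the bar is the median. The histones reach -1.09 and have a median of -0.43, the mitosis genes -0.50.

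Marker lists of other cells were counted in the same way, beside 11.0% of all named genes above background higher and 8.78% lower. Of 9 tested neutrophil and progenitor markers, 5 rose and 0 fell, with a mean list level of 8.01 to 8.70 in CF arrays and 7.37 to 7.66 in WT arrays. Among the 5, Mpo and Camp were above background in CF arrays only, so they entered the test through CF. With probes above background on all arrays 3 rose. S100a8 rose by 1.49 (SE 0.20) and S100a9 by 1.38 (SE 0.16), and Mmp8 lay under background. Of 8 tested erythroid markers 1 rose, Klf1, and 0 fell, with list levels of 9.20 to 9.64 in CF and 9.06 to 9.51 in WT. Tfrc, not called, had the largest difference of that list (1.42 ± 0.44 SE, adjusted p = 0.0514 by limma) and enters these levels. Of the 8 differences, 4 were below 0. In the lymphocyte list 0 of 5 were called, with levels of 6.57 to 6.76 in CF and 6.48 to 6.77 in WT. Of 7 endothelial markers 1 rose, Lyve1, with levels of 9.03 to 9.15 in CF and 8.73 to 8.87 in WT. Of 6 Kupffer cell and macrophage markers 1 rose, Marco (1.08 ± 0.30 SE, adjusted p = 0.0347 by limma), and 0 fell, with levels of 8.87 to 9.52 in CF and 8.70 to 9.08 in WT. Of 8 stellate cell markers 1 fell, Lrat (-0.54 ± 0.14 SE, adjusted p = 0.0247 by limma), and 1 rose, Dcn (0.32 ± 0.08 SE, adjusted p = 0.0263 by limma), with levels of 8.85 to 9.40 in CF and 9.09 to 9.36 in WT. In the cholangiocyte list 0 of 3 were called. With 1 call each, the erythroid, endothelial and Kupffer cell lists are near the share of all genes. The part of these markers in the histone differences was not tested, and in whole tissue fewer cells of a type and less RNA per cell cannot be told apart.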

How the data were processed

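Single-colour bead arrays of whole-liver RNA from 4 CF and 4 WT mice were used. Per the submitters' processing notes the software was GenomeStudio, with settings not given in the sources used here. The authors deposited log2 values for 25697 probes, whose sorted arrays differ by at most 0.000351, so they had been quantile-normalized, which would hide a change shared by most transcripts. The background correction and exact transform are not given in the sources used here. A deposited scanner table has 32 columns named by chip position, which no label ties to samples, and was not used. Precision is limited by the number of arrays, with a median SE of 0.0888 for a difference.

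The background level was 1.645 spreads above the commonest value, 6.18, where 0.173 is the spread of values lower than it. Probes above it on at least 4 arrays, 12937 in all, entered a two-sided test of genotype alone (limma 3.58.1, its lmFit and eBayes, R 4.3.3), adjusted by Benjamini-Hochberg. Unadjusted p was under 0.05 for 4220 probes. The test was tried on simulated data. Probes took their symbols from the platform annotation, where 23978 have 1 symbol, 0 several and 1719 none. All 50 members matched RefSeq by gene identifier, and 46 had a promoter there. Sequences are from RefSeq.

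Named were all members, with array values for those past the threshold and the brightest of each class, and up to 4 changed genes of each list. H3c4, H4c9, H2ac24, H2ac8 and Tfrc were given in more detail after their values were seen. The members and gene lists were chosen with earlier results of these data known. Equal replicate numbers are not stated to pair animals, and deviations of equal-numbered arrays correlated across probes at -0.327, 0.0618, -0.288 and 0.0882, so no pairing was used. Nothing beyond the labels shows that replicates are separate animals, so p-values measure the spread between these arrays. The alternatives tried were no filter or a stricter one on dim probes, cyclic loess, a floor at background, weights for arrays, a trended robust prior, replicate number as a block, averaging the probes of each gene, and leaving out arrays. Leaving out WT 1 and WT 2 was chosen after seeing the data. A protein comparison was not analysed here.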

Additional observations from a re-analysis of the deposited data

Results flagged for a closer look

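Among 78 groups of 4 arrays tested for 1 array far from the other 3, 2 were marked, and chance marks about 1 in 20. H2ac15 was at 7.95 in CF 4, below the 8.08 to 8.11 of the other CF arrays. Rfc5 was at 7.19 in CF 3, below the 7.29 to 7.30 of the other CF arrays. Both gaps are small beside the differences from the WT arrays.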

How the results depend on the processing

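The count of histone members lower in CF was 12, and 10 to 13 under the 18 alternatives. It stayed at 12 with the replicate block, cyclic loess, a floor at background, another variance prior, averaged probes and probes above background on all arrays, with the same 12 members in each. Without a filter on dim probes it was 12 too, with H2ac8 in place of H2ac7, and with array weights 10, without H2ac7 and H2ac12. Single arrays left out gave 10 to 13 lower. The count of members higher in CF, 1, was 0 with the mean of all probes, 0 without WT 3 and CF 1 and 0 without WT 1 and WT 2, and 0 or 1 as single arrays were left out. The cause was not tested. The median difference of the 50 members, -0.14, ranged from -0.19 to -0.05. H2ac20, not called, with a difference of -0.17, had one of 0.03 without WT 1 and WT 2, a setting chosen after seeing the data. Of all probes 2475 were called, with 1441 under the replicate block, 1060 without WT 3 and CF 1, 1422 without WT 1 and WT 2, and 1612 to 2090 as single arrays were left out, where fewer samples entered. The replicate block changed no call of a member named here with array values. It left 4 S phase and 2 mitosis genes lower. Of the neutrophil markers, 5 were higher, and 3 with probes above background on all arrays. Equal replicate numbers share only a number. Near background, small differences cannot be read, and quantile scaling was already in the deposited values.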
